A study of Mus musculus with 4 samples.

Results

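The CC chemokines described here are 10 mouse genes, Ccl2, Ccl3, Ccl4, Ccl5, Ccl6, Ccl7, Ccl8, Ccl9, Ccl12 and Ccl24, chosen by symbol from the 35798 named genes of the count table. Ccl3, Ccl4 and Ccl5 are the chemokines made by NK cells, and the other 7 are of the kind made by monocytes and macrophages, although activated macrophages also make Ccl3 and Ccl4, and T cells make all 3 of the first group. All 10 were among the 13822 genes that passed the filter on low counts and were tested. Ccl7, Ccl8 and Ccl12 passed that filter, which asks for about 10 counts in at least 2 libraries, only through the wild-type libraries, so their differences follow in part from the filter.

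The samples were Ly49H+ NK cells, the mouse NK subset that recognises cells infected with mouse cytomegalovirus (MCMV), taken from the spleen 3.5 days after MCMV infection. Wild-type NK cells carrying the CD45.1 allele and NK cells lacking TNFR2 (TNFR2 KO, a receptor for tumour necrosis factor) carrying CD45.2 had been transferred together into NSG mice, so that both genotypes met the same infected host. RNA from sorted cells was sequenced as 2 libraries per genotype, in 1 experiment done in duplicate. By the labels, the wild-type and knockout samples numbered alike were isolated from one pool of spleens from 3 treated mice, and whether the pools of number 1 and number 2 came from separate mice or infections is not stated. Values are in CPM, a gene's counts set to a common library total after scaling between libraries by the trimmed mean of M values (TMM), and changes are log2-fold changes of TNFR2 KO over wild-type with their standard error (SE). The genotype, the CD45 allele and the sort gate that reads it cannot be told apart in this design. NSG mice lack T, B and NK cells but keep myeloid cells, and their own leukocytes carry CD45.1, the allele by which wild-type cells were gated. The part of host cells in the results was not tested, and in bulk RNA fewer cells of a type and less RNA per cell cannot be told apart.

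CC chemokines are small secreted proteins, named for a pair of adjacent cysteines near their start, that attract leukocytes through G protein-coupled receptors of the CCR family. NK cells that meet a virus-infected target release Ccl3, Ccl4 and Ccl5, which draw further lymphocytes and myeloid cells to the site. Ccl2, Ccl7 and Ccl12 act largely through Ccr2 and draw monocytes from the blood. Ccl6 and Ccl9 are made by myeloid cells and act through Ccr1, and Ccl24 attracts eosinophils through Ccr3.

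Of the members that lie together on chromosome 11, Ccl3 was higher and Ccl6 and Ccl9 were lower in TNFR2 KO libraries, so the 250 bases before their annotated starts are shown side by side. They come from RefSeq on GRCm38.p6, all on the minus strand, at chr11:83649379-83649628 for Ccl3, chr11:83593088-83593337 for Ccl6 and chr11:83578637-83578886 for Ccl9. Capitals mark matches to the motifs searched.
Ccl3: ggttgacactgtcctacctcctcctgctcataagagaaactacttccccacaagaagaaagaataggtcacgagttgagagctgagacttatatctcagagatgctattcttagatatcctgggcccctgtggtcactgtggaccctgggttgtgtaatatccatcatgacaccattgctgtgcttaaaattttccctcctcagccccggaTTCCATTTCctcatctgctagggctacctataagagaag
Ccl6: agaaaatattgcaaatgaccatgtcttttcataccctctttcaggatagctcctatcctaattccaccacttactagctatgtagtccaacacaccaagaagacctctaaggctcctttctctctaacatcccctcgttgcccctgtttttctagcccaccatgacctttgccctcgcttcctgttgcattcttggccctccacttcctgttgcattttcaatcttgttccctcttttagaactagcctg
Ccl9: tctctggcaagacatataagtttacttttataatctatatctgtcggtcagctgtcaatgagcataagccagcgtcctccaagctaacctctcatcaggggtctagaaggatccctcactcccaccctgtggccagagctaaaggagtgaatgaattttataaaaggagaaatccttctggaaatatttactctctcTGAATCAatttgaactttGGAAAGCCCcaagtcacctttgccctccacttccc
The motifs were GGNNTTTCC and GGGANTTCC for NF-kB, a factor activated downstream of tumour necrosis factor receptors, TGANTCA for AP-1, GAAANNGAA for the interferon-stimulated response element and TCACACCT for T-box factors, read on both strands. The Ccl3 promoter held 1 match, to GAAANNGAA, 39 to 31 bases before the start. The Ccl9 promoter held a match to TGANTCA 53 to 47 bases before the start and another to GGNNTTTCC at 35 to 27 bases, and the Ccl6 promoter held none. These promoters, with those of Ccl8 and Ccl12 in which no motif was found, were the 5 member promoters matched by symbol. Among 32851 mouse promoters of this length the share with a match was 4.93% for GGNNTTTCC, 1.43% for GGGANTTCC, 6.75% for TGANTCA, 7.13% for GAAANNGAA and 1.12% for TCACACCT. A match describes the letters of this window and says nothing of a factor's binding.

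The libraries held 32713256 to 39543650 counts each, so that 1 CPM stood for 32.1 to 38.7 counts. Tnfrsf1b, the gene of TNFR2, was at 264.6 and 268.5 CPM in wild-type libraries and 55.1 and 58.6 CPM in TNFR2 KO libraries, lower in both libraries labelled as knockout (log2-fold change -2.23, edgeR adjusted p = 1.35e-13). All 6 NK markers checked, among them Ncr1 and Klra8, the gene of Ly49H, were expressed in every library. They summed to 2727 and 2736 CPM in wild-type and 5235 and 5261 CPM in TNFR2 KO libraries. All 6 were higher in TNFR2 KO libraries by adjusted p, where 24.2% of all tested genes were. Of the 6, 2 were called higher, against 1.56% of all tested genes. Tests were made with edgeR's quasi-likelihood test and Benjamini-Hochberg adjustment over all tested genes, and a gene was called where the adjusted p was under 0.05 and the log2-fold change was beyond 1 in either direction. The SDs and p-values measure only the spread between these samples, which may be technical. With 2 libraries per genotype an exact permutation test of one value cannot give a p under 0.33.

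All 3 NK-made chemokines were higher in TNFR2 KO libraries by adjusted p, and the median of their log2-fold changes was 0.88. Over all tested genes 24.2% were higher at the same adjusted p, and the median log2-fold change was -0.003. Of the 3, only Ccl5 passed the fold threshold and was called higher, against 1.56% of all genes called higher.

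Ccl5 (RANTES), which is held as a ready store of message and protein in NK and memory T cells, stood at 1149.9 and 1178 CPM in wild-type libraries and at 2883 and 2763 CPM in TNFR2 KO libraries. The genotypes did not overlap, and the means were 1164 ± 19.6 and 2823 ± 85.3 CPM (SD, n = 2 each). The log2-fold change was 1.28 ± 0.02 (SE; edgeR adjusted p = 6.94e-13). Ccl4 (MIP-1 beta), released early on activation, was at 112.1 and 117.4 CPM in wild-type and 210.1 and 212.1 CPM in TNFR2 KO libraries. It rose by a log2-fold change of 0.88 ± 0.03 (SE; edgeR adjusted p = 2.61e-10), under the fold threshold. Ccl3 (MIP-1 alpha), a ligand of Ccr1, was at 125.1 and 125.9 CPM in wild-type and 190.9 and 201.1 CPM in TNFR2 KO libraries. Its change was the smallest of the 3, with a log2-fold change of 0.64 ± 0.03 (SE; edgeR adjusted p = 7.81e-09).

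NK lineage genes rose with them. Across the 35 such genes in the table, the log2-fold change had a median of 0.52 (quartiles 0.33 and 0.79). By adjusted p 31 rose and 1 fell, where 24.2% of all tested genes rose. Il2rb, Nkg7 and Ets1 had the highest CPM among them, and the summed level went from 10938 and 10933 CPM to 15633 and 15677 CPM. Set against that sum, Ccl3 was at 11.4 and 11.5 CPM per 1000 CPM of NK lineage genes in wild-type libraries and 12.2 and 12.8 in TNFR2 KO libraries. Ccl4 was at 10.3 and 10.7 and then 13.4 and 13.5 on this scale, and Ccl5 at 105.1 and 107.7 and then 184.4 and 176.2. When these genes replaced TMM as the basis of scaling, the log2-fold change was 0.11 for Ccl3 (edgeR adjusted p = 0.0122), 0.34 for Ccl4 (2.48e-06) and 0.74 for Ccl5 (1.01e-09), so that Ccl5 was no longer past the fold threshold. That scaling moved the median of all genes to -0.54.

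The balance among the 3 also differed, in ratios taken within a library that no scaling can alter. The CPM of Ccl5 over that of Ccl3 was 9.19 and 9.35 in wild-type and 15.1 and 13.7 in TNFR2 KO libraries. The ratio of Ccl5 to Ccl4 was 10.3 and 10.03 in wild-type and 13.7 and 13.03 in TNFR2 KO libraries. Ccl4 also gained on Ccl3, with a ratio of 0.896 and 0.932 in wild-type and 1.10 and 1.06 in TNFR2 KO libraries, so that Ccl5 gained most and Ccl3 least. T cells make these chemokines too, and the part of T cells in the levels was not tested. T cell markers summed to 823 and 811 CPM in wild-type and 688 and 690 CPM in TNFR2 KO libraries. None of the 6 was called, although 4 were lower and 1 was higher by adjusted p. Of all 13822 tested genes, 3624 were lower and 3341 were higher by adjusted p. The part of macrophages in the Ccl3 and Ccl4 levels was not tested; macrophage markers were lower in TNFR2 KO libraries while both chemokines were higher.

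**Figure D1:**
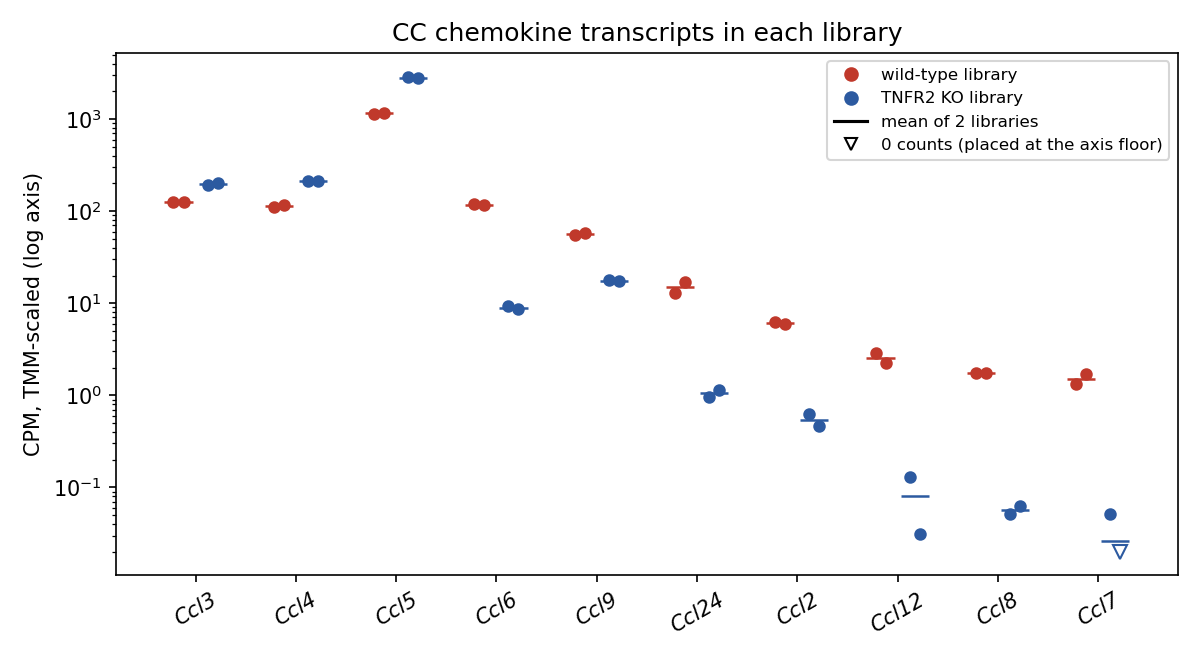
Level of each CC chemokine in every library, in TMM-scaled CPM on a log axis, with points for libraries, lines for the mean of 2 libraries and an open triangle at the axis floor for 0 counts. Ccl3, Ccl4 and Ccl5 are higher in both TNFR2 KO libraries and the other 7 are lower in both. Ccl7, Ccl8 and Ccl12 passed the low-count filter only through wild-type libraries. How many of all tested genes separate the genotypes in this way was not counted.

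Ccl2, Ccl6, Ccl9 and Ccl24, the 4 monocyte-type chemokines that the low-count filter would have kept from either genotype alone, were all called lower in TNFR2 KO libraries, where 11.8% of all tested genes were called lower. The median of their log2-fold changes was -3.58, beside -0.003 over all tested genes. Ccl7, Ccl8 and Ccl12 were also lower in both TNFR2 KO libraries, but they entered the test only through the wild-type libraries, so their values are a description and carry no test here.

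Ccl6 and Ccl9 are the pair that acts through Ccr1. Ccl6 (C10), made by macrophages and other myeloid cells, was at 118.5 and 116.1 CPM in wild-type libraries and at 9.38 and 8.58 CPM in TNFR2 KO libraries. It fell by 3.70 ± 0.05 on the log2 scale (SE; edgeR adjusted p = 6.74e-14). Ccl9 (MIP-1 gamma), which is made by macrophages and in bone attracts osteoclast precursors, was at 54.5 and 57.5 CPM in wild-type and 17.96 and 17.2 CPM in TNFR2 KO libraries. Its change was the smallest of the 7, with a log2-fold change of -1.67 ± 0.06 (SE; edgeR adjusted p = 1.33e-10). The CPM of Ccl6 over that of Ccl9 was accordingly 2.17 and 2.02 in wild-type and 0.522 and 0.498 in TNFR2 KO libraries.

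Ccl24 (eotaxin-2), an eosinophil attractant made by alternatively activated macrophages, was at 12.99 and 17.1 CPM in wild-type and 0.956 and 1.15 CPM in TNFR2 KO libraries. The log2-fold change was -3.84 ± 0.19 (SE; edgeR adjusted p = 4.17e-09). Ccl2 (MCP-1), the best known Ccr2 ligand and attractant of inflammatory monocytes, was at 6.30 and 5.88 CPM in wild-type and 0.620 and 0.468 CPM in TNFR2 KO libraries. Its log2-fold change was -3.46 ± 0.22 (SE; edgeR adjusted p = 5.18e-08).

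Ccl12, Ccl8 and Ccl7 were near the floor of detection in TNFR2 KO libraries and are given as counts. Ccl12 (MCP-5), a mouse relative of Ccl2, had 110 and 82 counts in wild-type libraries and 5 and 1 in TNFR2 KO libraries. Ccl8 (MCP-2) had 66 and 65 counts in wild-type and 2 and 2 in TNFR2 KO libraries, and Ccl7 (MCP-3) had 50 and 63 against 2 and 0. Over both libraries and corrected for library size, wild-type exceeded TNFR2 KO by 30.3 times for Ccl12, by 31 times for Ccl8 and by 53.4 times for Ccl7. These ratios rest on few counts and on genes that passed the filter only through wild-type libraries. They are a description without a test, and the 3 genes could not be ranked at this depth. The fitted log2-fold changes were -4.87 for Ccl12, -4.87 for Ccl8 and -5.59 for Ccl7. They depend on the prior count of the fit, and for Ccl7 the value ran from -8.75 without TNFR2 KO replicate 1 to -4.78 without TNFR2 KO replicate 2. For Ccl12 it ran from -6.20 to -4.27 when the same libraries were left out.

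Most macrophage, neutrophil and mast cell, basophil or eosinophil markers were lower along with the monocyte-type chemokines. Over all tested genes 11.8% were called lower and 1.56% higher. Of 20 macrophage or monocyte markers 19 were tested and all 19 were called lower, with a median log2-fold change of -3.00 and a range from -3.67 to -1.65. Their summed level was 1958 and 1961 CPM in wild-type libraries and 275.7 and 269.7 CPM in TNFR2 KO libraries, with Lyz2, Csf1r and Vcam1 highest in CPM and Clec4f, a marker of liver macrophages, at 0 in every library. All 12 neutrophil markers were called lower, from a sum of 906 and 919 CPM to 93.5 and 90.4 CPM, as were 10 of 12 mast cell, basophil and eosinophil markers, from 1295 and 1291 CPM to 101.1 and 102 CPM, while Cma1 was called higher. Of 6 dendritic cell markers 1 was called lower, and B cell markers summed to at most 0.47 CPM in any library. The part of these cells in the chemokine differences was not tested.

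Relative to the macrophage or monocyte list the 7 did not all move alike. Per 1000 CPM of that list, Ccl6 was at 60.5 and 59.2 CPM in wild-type and 34.03 and 31.8 in TNFR2 KO libraries, and Ccl24 at 6.64 and 8.74 and then 3.47 and 4.28. Both fell further than the summed list did. Ccl9 went the other way on this scale, from 27.8 and 29.3 to 65.2 and 63.9, and so kept more of its level than the list did. Ccl2 was at 3.22 and 3.00 in wild-type and 2.25 and 1.74 in TNFR2 KO libraries. Ccl7, Ccl8 and Ccl12 were lower too, on few counts. Single markers of the list differed from its sum as well. Adgre1, the gene of F4/80, was at 49.5 and 47.9 in wild-type and 35.2 and 32.7 in TNFR2 KO libraries, and Csf1r, the receptor that maintains macrophages, at 129.7 and 130.2 and then 99.3 and 98.8. Lyz2, the macrophage lysozyme, was at 393.8 and 396.4 and then 413.5 and 409.1. The log2-fold changes of the markers ran from -3.67 for Mertk to -1.65 for Cd68, both named after their values were seen, a range that holds those of Ccl2 and Ccl9 and ends just short of those of Ccl6 and Ccl24. These differences have no test across all genes, and an exact permutation test of any one of them cannot pass at this number of libraries.

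**Figure D2:**
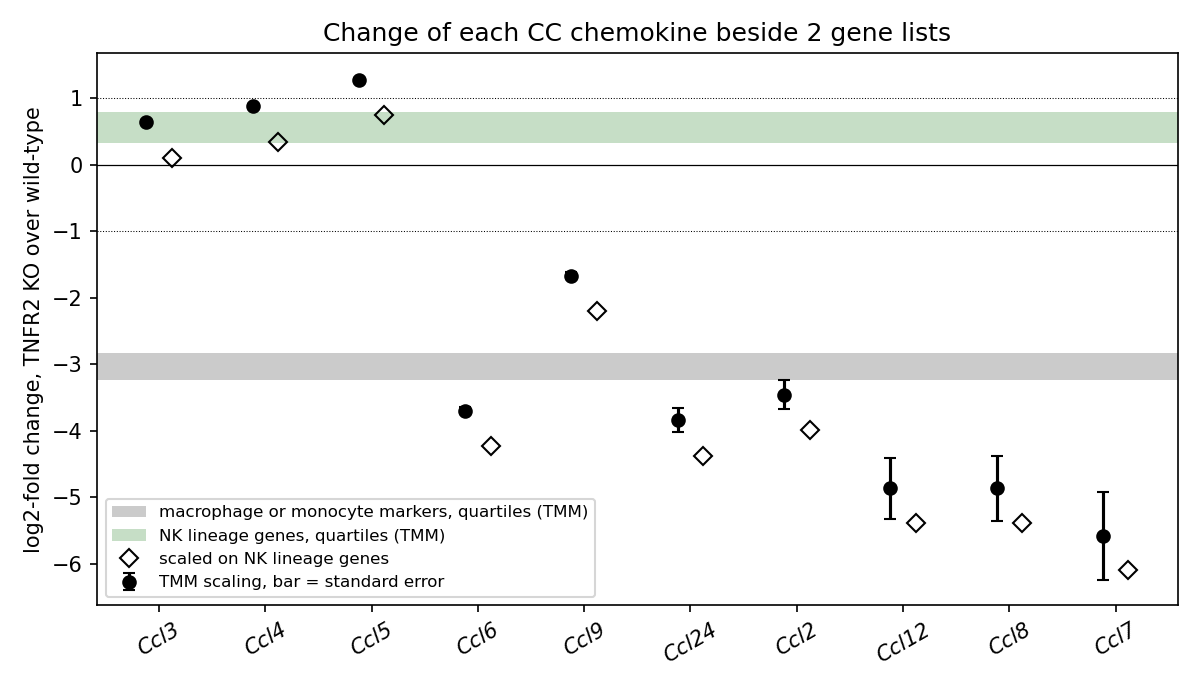
Log2-fold change of each CC chemokine, TNFR2 KO over wild-type, as circles with the standard error under TMM scaling and as diamonds when libraries are scaled on NK lineage genes, beside bands for the quartiles of the macrophage or monocyte markers and of the NK lineage genes under TMM, with dotted lines at the fold threshold. Under TMM Ccl4 and Ccl5 lie above the upper quartile of the NK lineage genes (0.79) and Ccl3 within the band. The quartiles of the 6 NK markers, not drawn, are 0.81 and 1.18, with Ccl3 below them and Ccl4 between them. Of the monocyte-type genes only Ccl9 lies above the macrophage band (-3.24 to -2.83). Ccl7, Ccl8 and Ccl12 passed the low-count filter only through wild-type libraries.

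In sum the 10 chemokines held 1585 and 1623 CPM in wild-type libraries and 3313 and 3203 CPM in TNFR2 KO libraries. The NK-made genes gave 1387 and 1421 CPM of this in wild-type and 3284 and 3176 CPM in TNFR2 KO libraries, and the monocyte-type genes 198.2 and 202.3 CPM and then 29.15 and 27.5 CPM. As a share, the NK-made genes were 87.5% and 87.5% of the summed CPM in wild-type and 99.1% and 99.1% in TNFR2 KO libraries, a difference of 11.6 percentage points. Ccl5 alone held 72.5% and 72.6% and then 87.0% and 86.2%. The shares of Ccl3 and Ccl4 were lower in TNFR2 KO libraries although their CPM was higher, with Ccl3 at 7.89% and 7.76% in wild-type and 5.76% and 6.28% in TNFR2 KO libraries. Ccl6 held 7.47% and 7.15% in wild-type and 0.283% and 0.268% in TNFR2 KO libraries.

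**Figure D3:**
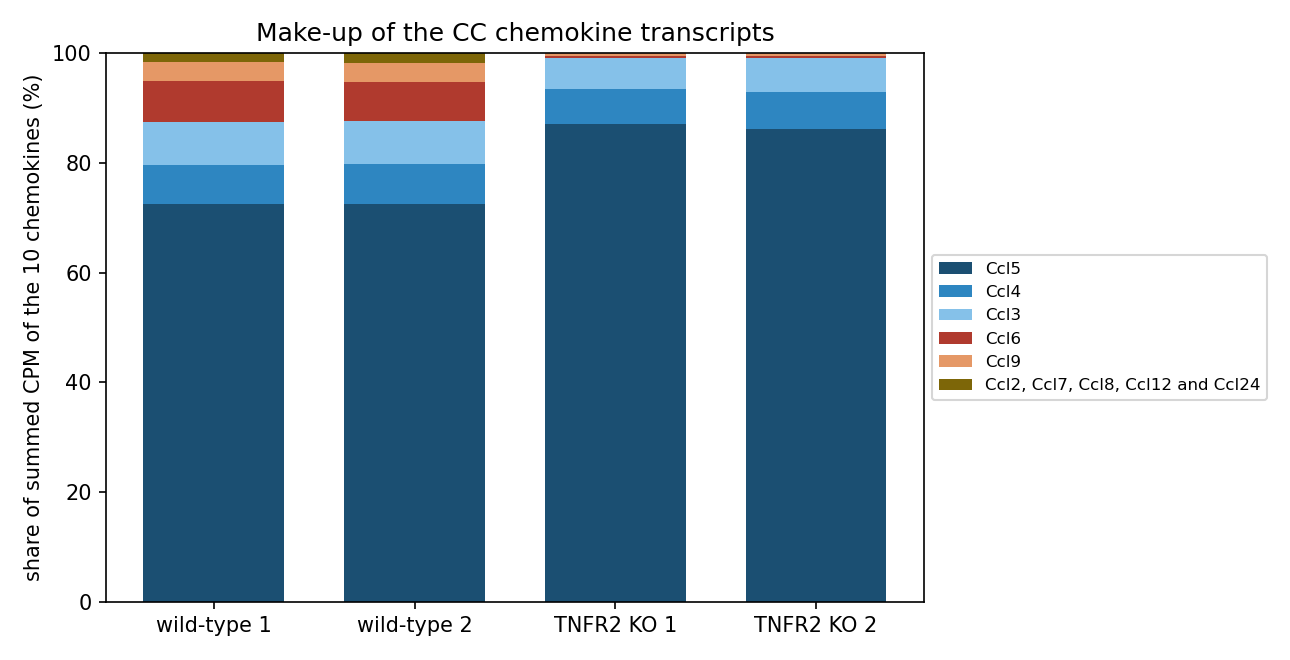
Share of the summed CPM of the 10 CC chemokines held by each gene or gene group, in percent, as 1 stacked bar per library. Ccl5 takes 72.5% and 72.6% of the bar in wild-type libraries and 87.0% and 86.2% in TNFR2 KO libraries.

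Per kilobase of annotated exon, the scale on which genes can be set beside each other, the mean wild-type levels ran in the order Ccl5 (1212 CPM per kb), Ccl4 (173.9), Ccl3 (163.9), Ccl6 (65.3), Ccl9 (18.4), Ccl24 (11.6), Ccl2 (5.35), Ccl12 (4.77), Ccl8 (3.43) and Ccl7 (1.89). Neighbours in this order did not overlap between libraries except Ccl2 and Ccl12, which were at 5.54 and 5.17 and at 5.40 and 4.14 CPM per kb. In the TNFR2 KO libraries Ccl5 again led, at a mean of 2941 CPM per kb, followed by Ccl4 at 319.8 and Ccl3 at 255.9. The order of the next pair turned round, with Ccl9 at 5.90 and 5.66 CPM per kb above Ccl6 at 5.23 and 4.78. The isoforms used are not known, and the exon lengths are those of the union of annotated exons.

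Of the 10 genes 9 lie on chromosome 11 (GRCm38 positions from GENCODE M21) in 2 runs whose near ends, the starts of Ccl8 and Ccl5, are 1.42 Mb apart. The first run holds Ccl2 (82035571 to 82037453), Ccl7 (82045712 to 82047525), Ccl12 (82101845 to 82103400) and Ccl8 (82115185 to 82116799), all on the plus strand and all lower in TNFR2 KO libraries. Between Ccl7 and Ccl12 lies Ccl11 (eotaxin-1), which had 0 counts in every library. The second run holds Ccl5 (83525778 to 83530518), Ccl9 (83572919 to 83578636), Ccl6 (83587882 to 83593087) and Ccl3 (83647844 to 83649355) on the minus strand and Ccl4 (83662584 to 83664683) on the plus strand. There the directions were mixed by position, for the lower Ccl9 and Ccl6, at 48.1 and 62.6 kb from the Ccl5 start, sat between the higher Ccl5 on one side and the higher Ccl3 and Ccl4, at 119 and 132 kb, on the other. Ccl24 lies apart, on the minus strand of chromosome 5 (135569937 to 135573049).

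Genes beside the second run were looked at after their values were seen. Heatr9, whose start is 8.34 kb from that of Ccl5, was at 9.54 and 11.4 CPM in wild-type and 24.3 and 24.6 CPM in TNFR2 KO libraries (log2-fold change 1.23, edgeR adjusted p = 2.06e-07), beside a change of 1.28 for Ccl5. Wfdc17, a myeloid gene beyond Ccl4, fell with Ccl6 and Ccl9, from 13.5 and 13.4 CPM to 1.94 and 1.19 CPM (log2-fold change -3.08, edgeR adjusted p = 2.32e-08). Taf15, farther out on the Ccl5 side, gave a log2-fold change of -0.04 (edgeR adjusted p = 0.480). These values depend on the scaling. With libraries scaled on NK lineage genes, Heatr9 gave 0.69 (edgeR adjusted p = 3.5e-05) and was no longer called. Wfdc17 then gave -3.62 and Taf15 -0.57 (edgeR adjusted p = 4.13e-07). In the GENCODE M21 transcripts the share of a member's 31-base words that occur in other genes was at most 3.98%, in Ccl9, and how reads were divided between genes was not tested. Ccl2 lies inside a gene on the opposite strand, Gm17268, that had 0 counts in every library. Ccl6 lies inside another, E230016K23Rik, for which no counts were used here, and the strand setting of the counting is unknown. Read on both strands, 1.02% of the 31-base words of Ccl6 occur in transcripts of any other gene, mainly Slc17a4. E230016K23Rik can share no more than that.

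**Figure D4:**
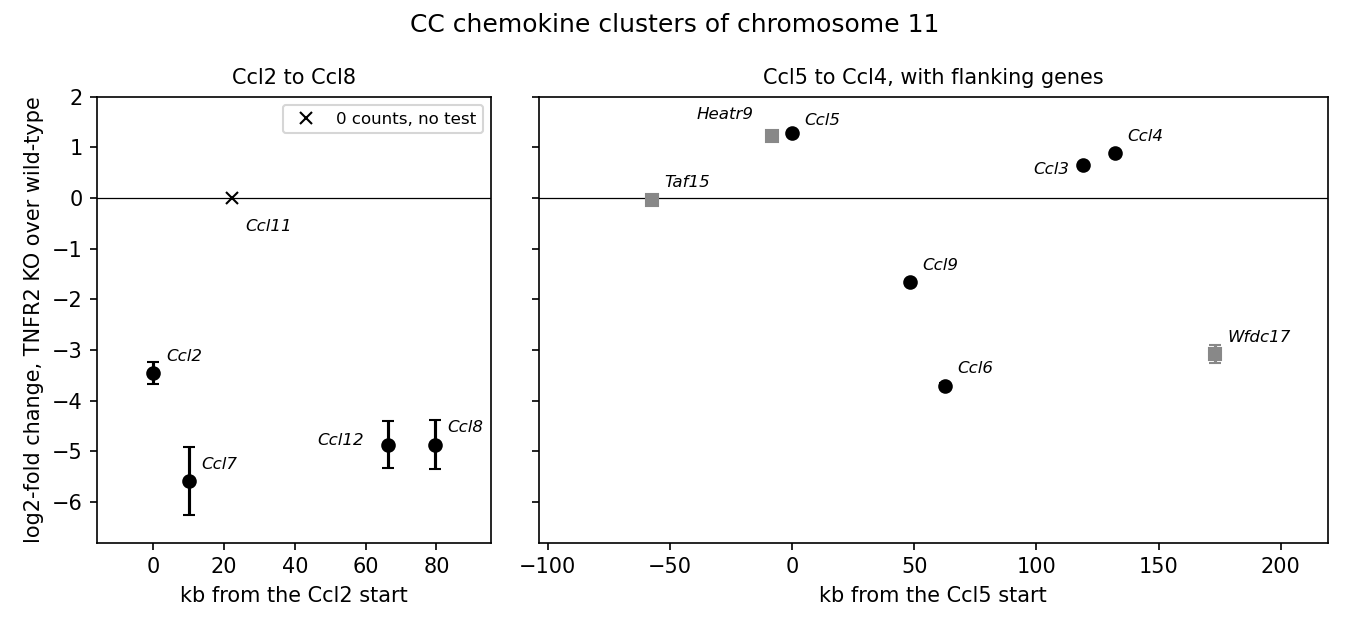
Log2-fold change, TNFR2 KO over wild-type, against distance in kb from the start of Ccl2 (left) or Ccl5 (right), with circles for CC chemokines, squares for flanking genes, bars for the standard error and a cross for Ccl11, which had 0 counts and no test. Ccl9 and Ccl6 lie below 0 between Ccl5 and the pair of Ccl3 and Ccl4, which lie above it. Ccl7, Ccl8 and Ccl12 passed the low-count filter only through wild-type libraries.

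Few of the other family members had counts enough to test. Of 14 other CC chemokines 13 were in the table, 6 of them had 0 counts in every library (Ccl11, Ccl20, Ccl21a, Ccl21b, Ccl26 and Ccl27b), and 4 were tested. The 31-base words of Ccl21a (80.6%), Ccl21b (100%) and Ccl27b (100%) are largely or wholly shared with other genes, so their counts of 0 do not show that they were absent. Ccl1, a ligand of Ccr8, was at 0.738 and 0.949 CPM in wild-type and 0.362 and 0.312 CPM in TNFR2 KO libraries (log2-fold change -1.31, edgeR adjusted p = 0.0251), and Ccl22, a ligand of Ccr4, at 1.13 and 0.949 and then 0.543 and 0.374 CPM (-1.16, adjusted p = 0.0289). Both calls rest on few counts. DESeq2 gave adjusted p values of 0.112 and 0.111, Ccl1 was not called when any one of the 4 libraries was left out, and Ccl22 was not called without wild-type replicate 1, wild-type replicate 2 or TNFR2 KO replicate 2. Ccl27a was called higher, from 1.61 and 1.74 CPM to 3.70 and 3.81 CPM (1.16, edgeR adjusted p = 0.000331), but 57.0% of its 31-base words occur in other genes, so its value is uncertain. Scaled on the NK lineage genes, Ccl27a gave a log2-fold change of 0.63 (edgeR adjusted p = 0.0104) and was no longer called, which left 2 of the list called. Ccl25 gave a log2-fold change of 0.05 (edgeR adjusted p = 0.876).

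Receptors of the CC chemokine family, not all of which bind the 10 members, divided in the same libraries. Of 14 CC chemokine receptors and scavengers considered 10 were tested, and 4 were called lower, where 11.8% of all tested genes were called lower. None was called higher, against 1.56% of all tested genes, although Ccr2 was higher by adjusted p. Ccr1, a receptor of Ccl3, Ccl5, Ccl6 and Ccl9 found on myeloid cells, was at 23.1 and 21.7 CPM in wild-type and 4.68 and 4.49 CPM in TNFR2 KO libraries (log2-fold change -2.29, edgeR adjusted p = 1.19e-09). Ccr3, the eotaxin receptor of eosinophils and basophils, was at 11.9 and 11.4 and then 2.82 and 3.21 CPM (-1.95, adjusted p = 1.05e-07), beside the fall in mast cell, basophil and eosinophil markers given above. Ccrl2, found on myeloid cells, was at 38.9 and 37.0 and then 13.05 and 12.7 CPM (-1.56, edgeR adjusted p = 6.96e-10). Ccr7, which guides cells to lymph nodes, was called lower from 1.77 and 1.71 CPM to 0.749 and 0.874 CPM (-1.10, adjusted p = 0.00784), a call that ended without wild-type replicate 1 (adjusted p = 0.0511) or without TNFR2 KO replicate 1 (log2-fold change -0.98).

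Ccr2, the receptor of Ccl2, Ccl7 and Ccl12, is carried by monocytes and also by NK cells. Ccr2 was at 403.4 and 383.9 CPM in wild-type and 686.4 and 669.5 CPM in TNFR2 KO libraries (log2-fold change 0.78, edgeR adjusted p = 2.77e-10). Ccr2 was thus higher in the libraries where those ligands were lower. Scaled on the NK lineage genes, the change of Ccr2 was 0.25. Ccr8, a receptor of Ccl1, fell by 0.95 on the log2 scale (edgeR adjusted p = 0.00105), short of the fold threshold. Scaled on the NK lineage genes, Ccr8 was called lower (-1.49, edgeR adjusted p = 2.03e-05). Ccr4, Ccr9, Ccr1l1 and Ackr1 had log2-fold changes of -0.33, -0.20, 0.82 and 0.37, with edgeR adjusted p values from 0.0815 to 0.673.

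**Figure D5:**
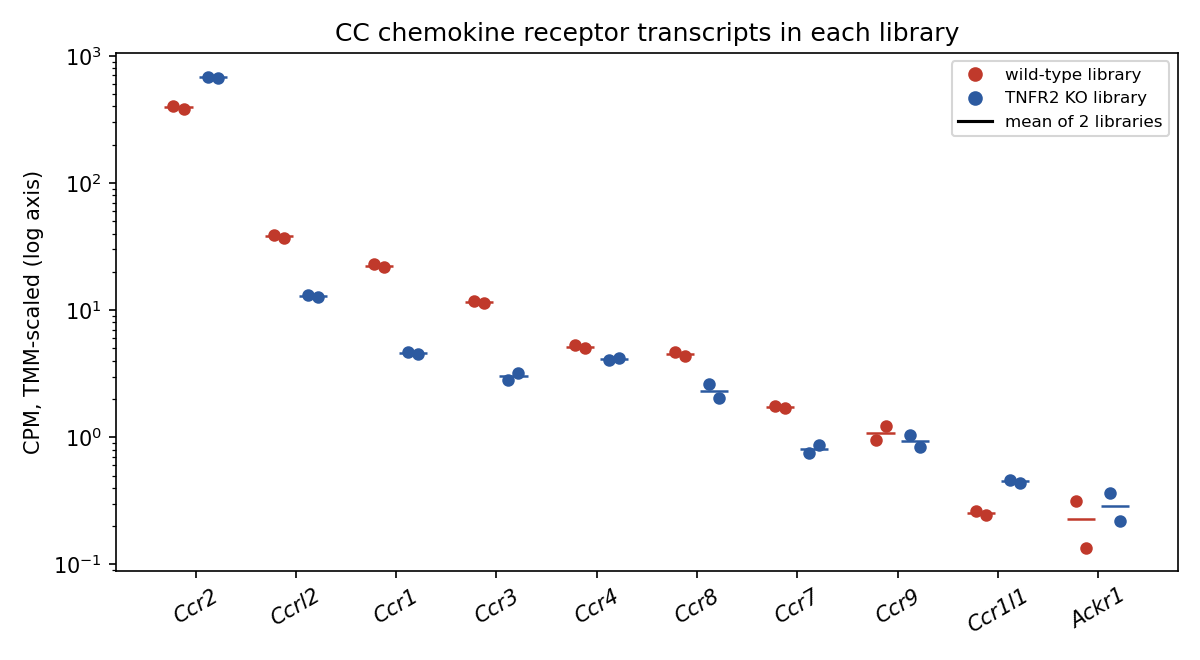
Level of 10 tested CC chemokine receptors in every library, in TMM-scaled CPM on a log axis, with points for libraries and lines for the mean of 2 libraries. Ccr2 lies between 383.9 and 686.4 CPM and is higher in both TNFR2 KO libraries, while Ccr1, Ccr3 and Ccrl2 are lower in both.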

How the data were processed

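RNA of sorted Ly49H+ NK cells was sequenced in 4 libraries. Per the labels, the authors trimmed reads with Trimmomatic (listed as version 1.4) and quantified transcripts with kallisto 0.46.1; the deposited values are estimated counts summed per gene. Transcript annotation and strand setting are not given in the sources used here, so lengths are approximate. The estimated counts were rounded to whole numbers, and rows without a gene symbol (0.0559% to 0.0728% of counts) were left out. Library totals ran from 32713256 to 39543650 counts. In R 4.3.3, edgeR 4.0.16 was used with filterByExpr, TMM scaling and the quasi-likelihood test without a block, since the study states none; DESeq2 1.42.0 was an alternative, and plots were drawn with matplotlib 3.10.9. Scripts were tested on simulated data. The sample descriptions in the labels state that libraries WT_1 and TNFR2KO_1 shared one spleen pool, as did WT_2 and TNFR2KO_2, so the numbers pair the samples; their deviations from the genotype means correlated at only 0.0179, and the block was fitted as an alternative. Replicates of a genotype differed by more than sampling noise (mean chi-square per gene 3.29 and 3.49). Alternatives were other scalings, another tool, other filters, the replicate block and leaving out each library. Exon lengths, positions and shared 31-base words came from GENCODE M21 on GRCm38, which stands in for the authors' annotation. Named genes were the 10 members, Tnfrsf1b, the tested genes of the lists of other CC chemokines and receptors, the most abundant macrophage markers and the protein-coding neighbours in the clusters; marker lists covered macrophages or monocytes, neutrophils, mast cells with basophils and eosinophils, dendritic, T, B, stromal and NK cells. Of 4 tested stromal markers 1 was called lower, where 11.8% of all tested genes were. One gene of the receptor list is not reported here. The members and all lists were chosen with earlier results of these data known.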

Additional observations from a re-analysis of the deposited data

How the results depend on the processing

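Limits first: there were 2 pooled libraries per genotype and 1 experiment. Levels were under 2 CPM in both genotypes for Ccl7, Ccl8, Ccl1, Ccl22, Ccl25, Ccr7, Ccr9, Ccr1l1 and Ackr1. Ccl2, Ccl6, Ccl9 and Ccl24 were called lower under every scaling, under DESeq2 and without a low-count filter. Without any one library, the log2-fold change ran from -3.68 to -3.28 for Ccl2 and from -3.76 to -3.64 for Ccl6. It ran from -1.70 to -1.62 for Ccl9 and from -4.02 to -3.62 for Ccl24. The filter of 10 CPM tested only Ccl6 and Ccl9 of these, and both were called lower. Ccl7, Ccl8 and Ccl12, tested only through wild-type libraries, are left out here. The replicate block left the calls of Ccl2, Ccl6, Ccl9, Ccl24, Ccl3, Ccl4 and Ccl5 unchanged (1616 called lower and 214 higher over all genes). Scaled on NK lineage genes, 0 members were called higher, since Ccl5 stood at 0.74, and over all genes 2599 were called lower and 59 higher, against 1627 and 215 under TMM, 1446 and 157 by DESeq2 and 424 and 56 at 10 CPM. Of other CC chemokines 3 were called under TMM, 1 by DESeq2, 2 by NK scaling, 0 at 10 CPM and 1 to 2 without one library. Receptors called numbered 4 under TMM, 5 by library size alone, 5 by NK scaling and 2 at 10 CPM. Ccr8 passed the fold threshold by library size alone (-1.01) and by NK scaling (-1.49), and ran from -1.14 to -0.79 without one library. The difference in the NK-made share was 11.6 points in CPM, 6.32 points per kb and 11.7 points of all CC chemokines. Directions reversed for Ccl25 (-0.0077 by library size, -0.48 by NK scaling, -0.022 to 0.14 without one library), Ackr1 (-0.16 by NK scaling, -0.10 to 1.10 without one library) and Taf15 (-0.095 to 0.024 without one library); the cause was not tested.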
